A study of Mus musculus with 24 samples.

Results

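The serpin genes described here are 9 protease inhibitor genes of mouse liver, Serpina1a, Serpina1b, Serpina1c, Serpina1d, Serpina1e, Serpina3g, Serpina3k, Serpina3m and Serpina3n. They were taken by symbol from a table of read counts that lists 24015 genes, and all 9 passed the filter on low counts in every comparison. Livers came from female B6C3F1 mice, a hybrid laboratory strain, that were 5 to 6 weeks old and received corn oil alone or furan in corn oil by gavage for 21 days. The furan dose was 8 mg per kg of body weight per day, with livers collected 4 h following the final dose. From every liver came a frozen piece (fresh-frozen) and 2 pieces kept in formalin, 1 for 18 h and 1 for 3 wk, and then embedded in paraffin (FFPE), so that pieces with the same animal number come from the same liver. Control animals were 02, 03, 04 and 06 and furan animals were 41, 42, 43 and 44. Fresh-frozen libraries of animals 03 and 42 were not analysed here, which left 3 control and 3 furan fresh-frozen libraries beside 4 of each in both kinds of FFPE tissue.

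Serpins are inhibitors that trap a protease when it cleaves an exposed stretch of the inhibitor, the reactive centre loop, and the residues of that loop set which protease is caught. The Serpina1 genes are the mouse counterparts of alpha-1-antitrypsin, the plasma inhibitor of neutrophil elastase, which hepatocytes secrete in large amounts. The Serpina3 genes are the mouse relatives of alpha-1-antichymotrypsin. Serpina3n is a plasma acute phase protein, Serpina3k is the kallistatin-like kallikrein-binding protein of liver, and Serpina3g (Spi2A) is an intracellular inhibitor of cathepsins that is studied in T cells and macrophages and is induced by interferon gamma.

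All 9 genes lie on mouse chromosome 12. In build GRCm38, a later build than the mm9 the reads were aligned to, the 5 Serpina1 genes lie on the minus strand, from Serpina1b at chr12:103728156-103738158 to Serpina1e at chr12:103947011-103956898. The 4 Serpina3 genes lie on the plus strand, from Serpina3g at chr12:104236252-104241939 to Serpina3n at chr12:104406729-104414329. The Serpina1 copies are nearly the same sequence. Over the 1242 coding bases that all 5 share in GENCODE M21 transcripts, 86 positions (6.92%) differ in at least 1 copy, and pairs of copies are 96.3% to 98.5% identical. The stretch of 75 coding bases with the most differences is printed below because it covers the reactive centre loop, where the copies can be told apart best. Capitals mark the 19 positions at which the 5 copies differ, against a median of 5 in windows of that length. It spans coding bases 1168 to 1242 of Serpina1a, whose annotated coding sequence is 1311 bases long, and coding bases 1099 to 1173 of the other copies.
Serpina1a: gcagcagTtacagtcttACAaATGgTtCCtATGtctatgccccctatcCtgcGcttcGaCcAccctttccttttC
Serpina1b: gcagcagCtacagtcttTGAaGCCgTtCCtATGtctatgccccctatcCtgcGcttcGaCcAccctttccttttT
Serpina1c: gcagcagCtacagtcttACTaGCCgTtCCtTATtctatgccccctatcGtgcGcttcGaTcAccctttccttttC
Serpina1d: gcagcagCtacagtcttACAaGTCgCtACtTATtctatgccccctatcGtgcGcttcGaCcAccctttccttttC
Serpina1e: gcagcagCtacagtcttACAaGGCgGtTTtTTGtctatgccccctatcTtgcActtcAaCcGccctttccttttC

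Elsewhere the copies hold long stretches in which no base tells them apart, the longest of them 226 coding bases. Of all 50-base words in the Serpina1c transcript, 73.0% also occur in a transcript of another gene, in each case of another Serpina1 copy. The share is 59.9% for Serpina1a, 45.9% for Serpina1d, 45.0% for Serpina1b and 37.9% for Serpina1e. In the last 300 bases of the transcripts it is 37.8% for Serpina1b, 33.5% for Serpina1d, 19.5% for Serpina1a, 14.3% for Serpina1c and 13.5% for Serpina1e. The Serpina3 genes share far fewer words, 19.1% in Serpina3m, 13.7% in Serpina3k, 11.7% in Serpina3g and 6.7% in Serpina3n. How reads that match several copies were counted is not given in the sources used here, so the split of reads between Serpina1 copies is uncertain in every value below.

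The sequence upstream of the Serpina1 genes is also nearly shared. Within the 250 bases before each RefSeq start (build GRCm38.p6), 188 bases align in all 5 copies and 20 of them differ. The windows of Serpina1b, Serpina1c and Serpina1e are printed because Serpina1c and Serpina1e were called lower with furan and Serpina1b was not called. Capitals mark bases that differ among the 5 copies or lie outside the stretch that all 5 windows cover. The annotated start of Serpina1e lies further downstream than that of its relatives, so its window is shifted.
Serpina1b chr12:103738190-103738439 minus strand: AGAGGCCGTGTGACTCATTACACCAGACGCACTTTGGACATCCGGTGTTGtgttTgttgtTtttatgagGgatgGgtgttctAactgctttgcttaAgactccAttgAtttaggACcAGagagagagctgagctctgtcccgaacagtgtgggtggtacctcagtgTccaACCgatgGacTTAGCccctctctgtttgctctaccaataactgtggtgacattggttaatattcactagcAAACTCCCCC
Serpina1c chr12:103904951-103905200 minus strand: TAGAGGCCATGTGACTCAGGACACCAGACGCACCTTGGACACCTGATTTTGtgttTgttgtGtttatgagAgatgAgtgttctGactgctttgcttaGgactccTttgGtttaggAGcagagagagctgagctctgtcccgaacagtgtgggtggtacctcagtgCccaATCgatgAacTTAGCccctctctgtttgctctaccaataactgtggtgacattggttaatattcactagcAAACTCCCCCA
Serpina1e chr12:103956898-103957147 minus strand: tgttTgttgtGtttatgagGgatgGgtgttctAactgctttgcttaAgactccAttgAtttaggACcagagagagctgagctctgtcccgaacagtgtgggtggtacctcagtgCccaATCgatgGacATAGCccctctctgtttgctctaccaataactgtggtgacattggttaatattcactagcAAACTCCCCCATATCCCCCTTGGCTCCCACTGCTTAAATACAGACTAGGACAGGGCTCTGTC

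Over their aligned parts, the Serpina1e window is 98.0% identical to that of Serpina1b and 95.5% to that of Serpina1c. The letters GTTAAT, a half-site of the hepatocyte factor HNF1, occur once on either strand in each of the 5 Serpina1 windows and in neither the Serpina3g nor the Serpina3n window, and 6.43% of all 32851 RefSeq promoter windows of that length hold them. TGANTCA, an AP-1 motif, occurs in the Serpina1a, Serpina1b, Serpina1c and Serpina1d windows and in 6.75% of all windows. In these windows it begins at -240 to -229 from the start, upstream of the bases that the shifted Serpina1e window covers. Whether Serpina1e holds it there was not tested. TTCNNNGAA, a STAT motif, occurs once in the Serpina3g window and in 7.02% of all windows. TTNNGNAA, a C/EBP motif, occurs in the Serpina1b, Serpina1d, Serpina1e, Serpina3g and Serpina3n windows and in 36.8% of all windows, and TGACNNNGC, an antioxidant response element, in none of the 7 and in 10.2% of all. No window of Serpina3k or Serpina3m was used here.

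The libraries differed in depth, with totals of 33101755 to 58048387 counts for fresh-frozen, 16269854 to 22494012 for FFPE 18 h and 3666173 to 11780691 for FFPE 3 wk libraries. The 45S ribosomal precursor Rn45s took 0.129% to 0.520% of counts in fresh-frozen and 4.85% to 16.5% in FFPE libraries, apart from control 06 FFPE 18 h, where it took 37.3%. Without that library, 3 of the 9 serpin genes still passed in the furan comparison of FFPE 18 h tissue and 6 in the comparison of FFPE 18 h with fresh-frozen controls, the numbers found with it. The tissue was liver by its markers: the hepatocyte list summed to 88270 to 172640 CPM, counts scaled to library size. The macrophage list summed to between 241 and 907, and the T and NK cell list to between 7.75 and 33.8. The neutrophil list summed to at most 5.79, with Elane, which encodes neutrophil elastase, at 0 in every library of 4 of the 6 groups. In bulk tissue, fewer cells of a type and less RNA per cell cannot be told apart.

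The 9 genes together took 1.11% to 2.72% of all counts. Levels are CPM after TMM scaling, a correction for library composition, and genes are compared with each other only per kilobase of transcript. In fresh-frozen controls Serpina3k had the highest mean level per kilobase (2356), followed by Serpina1b (2185), Serpina1d (1508), Serpina1c (1080), Serpina1e (997), Serpina1a (651), Serpina3n (195) and Serpina3m (190), with Serpina3g far below at 4.94. The ranges over animals overlapped between Serpina3k and Serpina1b, between Serpina1c, Serpina1e and Serpina1a in that order, and between Serpina3n and Serpina3m, so these neighbours were not separated beyond their spread. In FFPE 18 h controls Serpina1c stood highest (3405), with a range that overlapped those of Serpina1b (3338) and Serpina3k (3287). The order in FFPE 3 wk controls began with Serpina3k (3851), Serpina1c (2714) and Serpina1b (2360), and in furan livers Serpina3k led and Serpina1e stood below Serpina1a in all 3 kinds of tissue.

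**Figure D1:**
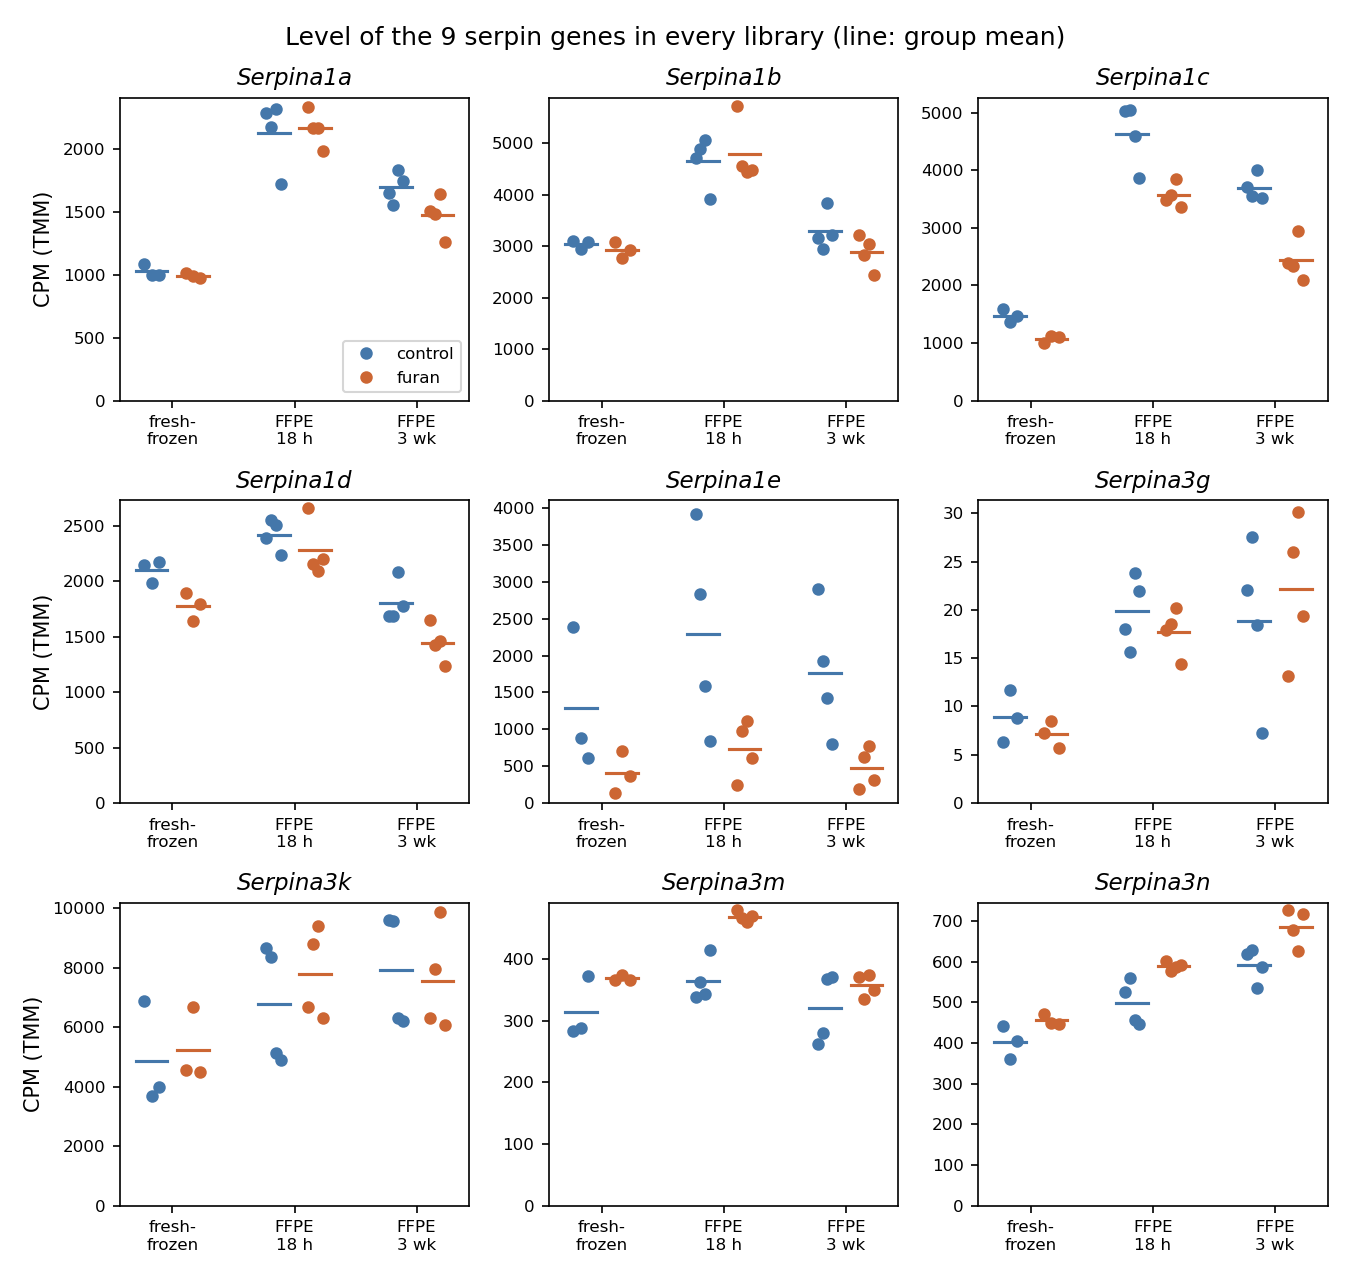
Level of each serpin gene in every library, as CPM after TMM scaling on a linear axis that starts at 0, by kind of tissue; points are libraries (3 per group in fresh-frozen, 4 in FFPE tissue), blue for control and orange for furan, and lines are group means. Serpina1c was lower in every furan library than in every control library of the same kind of tissue, and Serpina1e spread 3.61-fold to 5.12-fold within each group.

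The furan comparison asks how 3 weeks of a liver toxicant change these transcripts, in 3 pieces of tissue from the same animals. Among the copies of alpha-1-antitrypsin, Serpina1c fell in all 3 kinds of tissue, and Serpina1e differed by a larger amount, varied widely between animals, and passed in both kinds of FFPE tissue but not in fresh-frozen tissue. Serpina1a and Serpina1b did not pass in any, and Serpina1d was lower without passing. Of the antichymotrypsin relatives, Serpina3m rose in FFPE 18 h tissue and no other passed.

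In fresh-frozen tissue 1 of the 9 genes passed the threshold of an adjusted p of 0.05, downwards, where 7.47% of the 13794 genes tested were lower and 8.21% higher. In FFPE 18 h tissue 2 were lower and 1 higher, against backgrounds of 4.47% and 3.92%. In FFPE 3 wk tissue 2 were lower and 0 higher, against 0.522% and 0.298%. The median log2 fold change of the 9 genes was -0.05, 0.03 and -0.16 in the 3 kinds of tissue, beside -0.01, -0.01 and 0.02 over all genes tested. The 3 furan comparisons use pieces of the same animals, so they are not independent of each other. In 1 model of all 6 groups 0 of the 9 passed in fresh-frozen and 0 in FFPE 18 h tissue. With only the animals that also have a fresh-frozen library 0 passed in FFPE 18 h and 0 in FFPE 3 wk tissue.

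Serpina1c stood at 1592, 1355 and 1463 CPM in the fresh-frozen controls 02, 04 and 06 and at 1007, 1126 and 1097 CPM in the furan animals 41, 43 and 44. Every furan library lay below every control library, as for 19.5% of all genes tested. The log2 fold change was -0.44 ± 0.10 (SE, n = 3 and 3, edgeR quasi-likelihood test, adjusted p = 0.0215). Among FFPE 18 h libraries the controls 02, 03, 04 and 06 had 5022, 5052, 4601 and 3863 CPM and the furan animals 41, 42, 43 and 44 had 3477, 3572, 3849 and 3366 CPM. The groups again did not overlap, as for 7.77% of genes, but control 06 and furan 43 nearly touched. The change was -0.38 ± 0.09 (edgeR adjusted p = 0.0222). Among FFPE 3 wk libraries the controls had 3706, 3549, 4002 and 3516 CPM and the furan animals 2395, 2336, 2941 and 2099 CPM, in the same animal order. There the change was -0.57 ± 0.10 (edgeR adjusted p = 0.0239), and every furan library lay below every control library, as for 4.78% of genes.

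The size of the Serpina1c change held when single libraries were left out, at -0.50 to -0.38 (fresh-frozen), -0.46 to -0.33 (FFPE 18 h) and -0.67 to -0.51 (FFPE 3 wk), but its edgeR call did not. In fresh-frozen tissue the adjusted p was 0.0555 without control 02, 0.0592 without furan 41, 0.0589 without furan 43 and 0.0631 without furan 44. After 18 h of fixation it was 0.0709 without control 02, 0.0730 without control 03, 0.0545 without control 04 and 0.0753 without furan 44. After 3 wk of fixation it lay between 0.0588 and 0.1065 without control 02, 03 or 04 or furan 41, 42 or 44. DESeq2 gave Serpina1c an adjusted p of 0.0001078, 0.001861 and 9.862e-06 in the 3 kinds of tissue.

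Of the 9 genes Serpina1e differed most between animals. In fresh-frozen controls it stood at 2393 CPM in animal 02, 876 in 04 and 605 in 06, and in furan livers at 138 in animal 41, 707 in 43 and 369 in 44. Animal 43 lay above control 06, so the groups overlapped, and the log2 fold change of -1.67 ± 0.64 did not pass (edgeR adjusted p = 0.117). In FFPE 18 h tissue the controls 02, 03, 04 and 06 had 3917, 2832, 1582 and 847 CPM and the furan animals 41, 42, 43 and 44 had 248, 980, 1119 and 612 CPM. Here animals 42 and 43 lay above control 06. The change passed at -1.63 ± 0.45 (edgeR adjusted p = 0.0416). In FFPE 3 wk tissue the controls had 2907, 1930, 1420 and 805 CPM and the furan animals 185, 622, 775 and 314 CPM. These groups did not overlap, as for 4.78% of genes in the downward direction, though control 06 and furan 43 were close. The change passed at -1.88 ± 0.40 (edgeR adjusted p = 0.0415).

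The Serpina1e calls rested on nearly every library. Among FFPE 18 h libraries the adjusted p was 0.1209, 0.1013 and 0.0524 without control 02, 03 or 04 and 0.0758, 0.0592, 0.0514 and 0.1210 without furan 41, 42, 43 or 44, and 0.005198 without control 06. Among FFPE 3 wk libraries it was 0.1312, 0.1001 and 0.1002 without control 02, 03 or 04 and 0.0906, 0.0814, 0.0567 and 0.1843 without furan 41, 42, 43 or 44, and 0.0053 without control 06. Its log2 fold change in those fits ran from -1.91 to -1.25 in FFPE 18 h tissue and from -2.22 to -1.51 in FFPE 3 wk tissue. In fresh-frozen tissue it ran from -2.33 without furan 43 to -0.86 without control 02, and none of the 6 fits passed.

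The differences between animals recurred in each piece of the same liver. Controls ranked 02, 03, 04 and 06 from high to low in both kinds of FFPE tissue and 02, 04 and 06 in fresh-frozen tissue. Furan animals ranked 43, 42, 44 and 41 in FFPE and 43, 44 and 41 in fresh-frozen tissue. As a share of the summed Serpina1a to Serpina1e counts, Serpina1e made up 23.2% in the frozen piece of control 02, 21.4% in its FFPE 18 h piece and 22.2% in its FFPE 3 wk piece. The shares were 10.7%, 9.83% and 10.8% in control 04 and 7.26%, 6.73% and 7.28% in control 06. In furan animal 41 they were 1.94%, 1.71% and 2.060%, in animal 43 9.76%, 8.18% and 7.86%, and in animal 44 5.15%, 4.84% and 4.27%. Animal 03 had 16.2% and 16.5% and animal 42 had 7.29% and 7.15% in their FFPE pieces. The shares of 1 animal lay close together across its pieces, while those of different animals lay as far apart as 1.94% and 23.2% within fresh-frozen tissue.

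**Figure D2:**
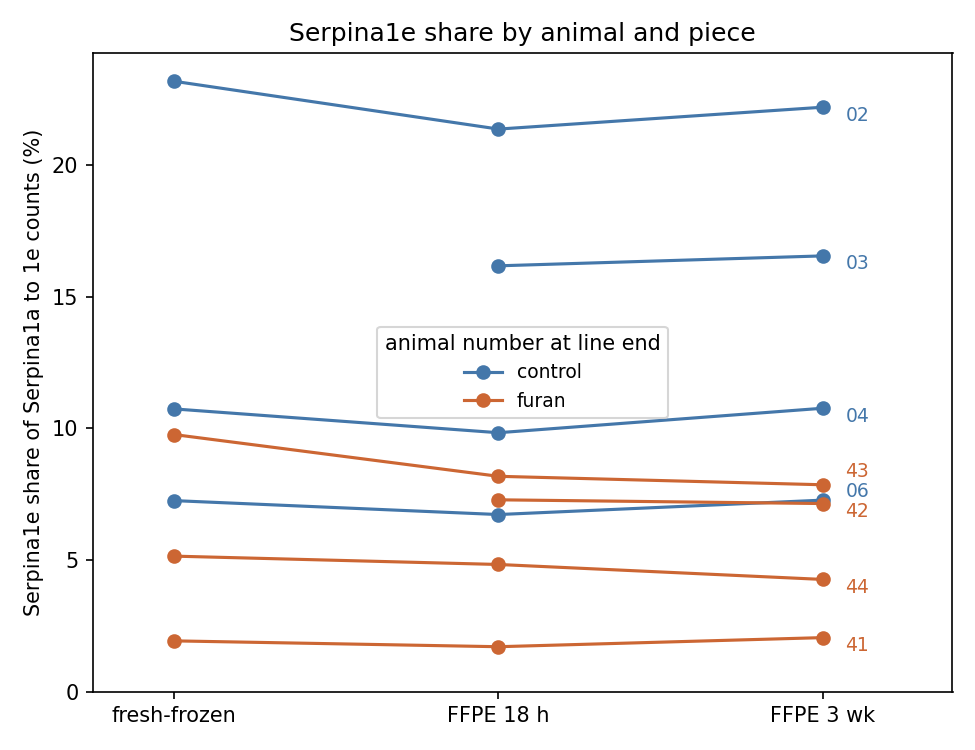
Share of the summed Serpina1a to Serpina1e counts that were counted to Serpina1e, in percent, for each animal (lines, with the animal number at the right) in its fresh-frozen, FFPE 18 h and FFPE 3 wk piece; blue lines are control and orange lines furan animals. The lines run nearly level, from 23.2%, 21.4% and 22.2% in control 02 down to 1.94%, 1.71% and 2.060% in furan animal 41.

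The spread of Serpina1e within groups was 1.11 as a pooled SD of log2 CPM in fresh-frozen tissue, the 8th largest of 9590 genes with a mean of at least 5 CPM, whose median SD was 0.106. After 18 h of fixation it was 0.979, the 32nd largest, against a median of 0.177. After 3 wk of fixation it was 0.866 (rank 1657) against a median of 0.448. Serpina1a, by contrast, had SDs of 0.055, 0.156 and 0.135, below the median gene in each kind of tissue. The expression pattern closest to Serpina1e over the 22 libraries was that of Hsd3b5, a liver 3-keto-steroid reductase gene, at a root mean square difference of 0.51 in centred log2 CPM, followed by Mup1, a major urinary protein gene, at 0.822. This comparison was chosen after the values of Serpina1e were seen. A gene at the same level in all libraries would lie at 1.27 from Serpina1e, and the median over 9581 genes was 1.4. Hsd3b5 ranged from 14.0 to 40.1 CPM in fresh-frozen controls and from 4.08 to 16.9 CPM in furan livers. Mup1 did not differ in that way, with means of 4.68 CPM in fresh-frozen controls and 4.85 CPM in furan livers.

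The other Serpina1 copies did not pass in any furan comparison. Serpina1a stood at 1089, 996 and 1002 CPM in fresh-frozen controls and 1013, 989 and 975 CPM in furan livers. Its groups overlapped, and its log2 fold changes were -0.04 ± 0.08, 0.03 ± 0.10 and -0.17 ± 0.10 in fresh-frozen, FFPE 18 h and FFPE 3 wk tissue. Serpina1b, at 3107, 2944 and 3085 CPM in fresh-frozen controls and 3080, 2775 and 2921 CPM in furan livers, had changes of -0.05 ± 0.09, 0.05 ± 0.11 and -0.16 ± 0.11. Both copies overlapped between groups in all 3 kinds of tissue.

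Serpina1d lay between these patterns. It stood at 2147, 1984 and 2177 CPM in fresh-frozen controls and 1891, 1646 and 1792 CPM in furan livers. Its furan libraries lay below all controls there, as for 19.5% of all genes tested. Its change of -0.23 ± 0.09 did not pass (edgeR adjusted p = 0.131). In FFPE 18 h tissue its change was -0.09 ± 0.09, with overlapping groups. In FFPE 3 wk tissue the groups did not overlap, as for 4.78% of genes in the downward direction. The change there of -0.29 ± 0.11 did not pass (edgeR adjusted p = 0.299). In 1 model of all 6 groups it passed, at -0.32 ± 0.10 (edgeR adjusted p = 0.0265), which made 3 of the 9 genes lower in FFPE 3 wk tissue. That model called 2030 of all genes there in place of 99. It has no term for the animal and pools the spread over kinds of tissue.

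A sum over the 5 copies does not depend on how the counted reads were divided among them. Reads that match several copies may not have been counted, and would then be missing from the sum. The summed level was 10327, 8156 and 8333 CPM in fresh-frozen controls and 7129, 7243 and 7153 CPM in furan livers. Among FFPE 18 h libraries it was 12586 to 18341 CPM in controls and 12655 to 14445 CPM in furan livers, and in FFPE 3 wk tissue 11064 to 13191 and 7353 to 9862 CPM. The groups were apart in fresh-frozen and FFPE 3 wk tissue and overlapped in FFPE 18 h tissue. Of single genes, 19.5% were apart in the downward direction in fresh-frozen and 4.78% in FFPE 3 wk tissue. As shares of this sum, Serpina1b took more in furan than in control fresh-frozen livers (38.3% to 43.2% against 30.1% to 37.0%), and so did Serpina1a (13.6% to 14.2% against 10.5% to 12.2%).

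Of the Serpina3 genes, Serpina3m stood at 283, 288 and 373 CPM in fresh-frozen controls and 366, 374 and 365 CPM in furan livers. Control 06 matched the furan livers while 02 and 04 lay lower, and the change of 0.24 ± 0.11 did not pass (edgeR adjusted p = 0.189). Without control 06 it passed at 0.38 (adjusted p = 0.0224). After 18 h of fixation the controls 02, 03, 04 and 06 had 338, 362, 343 and 414 CPM and the furan animals 480, 467, 459 and 469 CPM. The groups did not overlap, as for 7.74% of genes in the upward direction, and Serpina3m rose by 0.37 ± 0.08 (edgeR adjusted p = 0.0101). It passed without each library in turn, but not in 1 model of all 6 groups (adjusted p = 0.1103), with counts thinned to the smallest library (0.30, adjusted p = 0.0527) or with only the animals that have a fresh-frozen library (adjusted p = 0.0617). Among FFPE 3 wk libraries the controls had 263, 280, 368 and 370 CPM and the furan animals 371, 334, 374 and 350 CPM. These overlapped, and the change was 0.19 ± 0.13 (edgeR adjusted p = 0.686).

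Serpina3n, the acute phase member, stood at 442, 361 and 404 CPM in fresh-frozen controls and 471, 449 and 447 CPM in furan livers. In FFPE 18 h tissue the controls had 526, 559, 458 and 447 CPM and the furan animals 601, 577, 587 and 592 CPM. The furan libraries lay above all controls in both, as for 18.3% and 7.74% of genes, and overlapped with them by a narrow margin in FFPE 3 wk tissue. The changes were 0.19 ± 0.09, 0.25 ± 0.08 and 0.25 ± 0.11, and none passed in edgeR (adjusted p = 0.207, 0.0817 and 0.415). With DESeq2 Serpina3n passed in FFPE 18 h tissue (0.25, adjusted p = 0.0369), and with edgeR it passed there without control 03 (0.31, adjusted p = 0.0472).

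Serpina3k differed more between animals than between treatments. It stood at 6866, 3686 and 3987 CPM in fresh-frozen controls 02, 04 and 06 and at 4555, 6662 and 4496 CPM in furan animals 41, 43 and 44. Animals 02, 03, 42 and 43 were the high ones of their group in every piece measured, with 7967 to 9866 CPM in FFPE tissue, against 4894 to 6682 CPM in animals 04, 06, 41 and 44. The furan changes were 0.12 ± 0.26, 0.21 ± 0.19 and -0.04 ± 0.17, and none passed. Serpina3g was scarce, at 6.27, 11.7 and 8.76 CPM in fresh-frozen controls and 7.25, 8.52 and 5.70 CPM in furan livers. Its groups overlapped in all 3 kinds of tissue, with changes of -0.30 ± 0.22, -0.16 ± 0.15 and 0.25 ± 0.40.

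**Figure D3:**
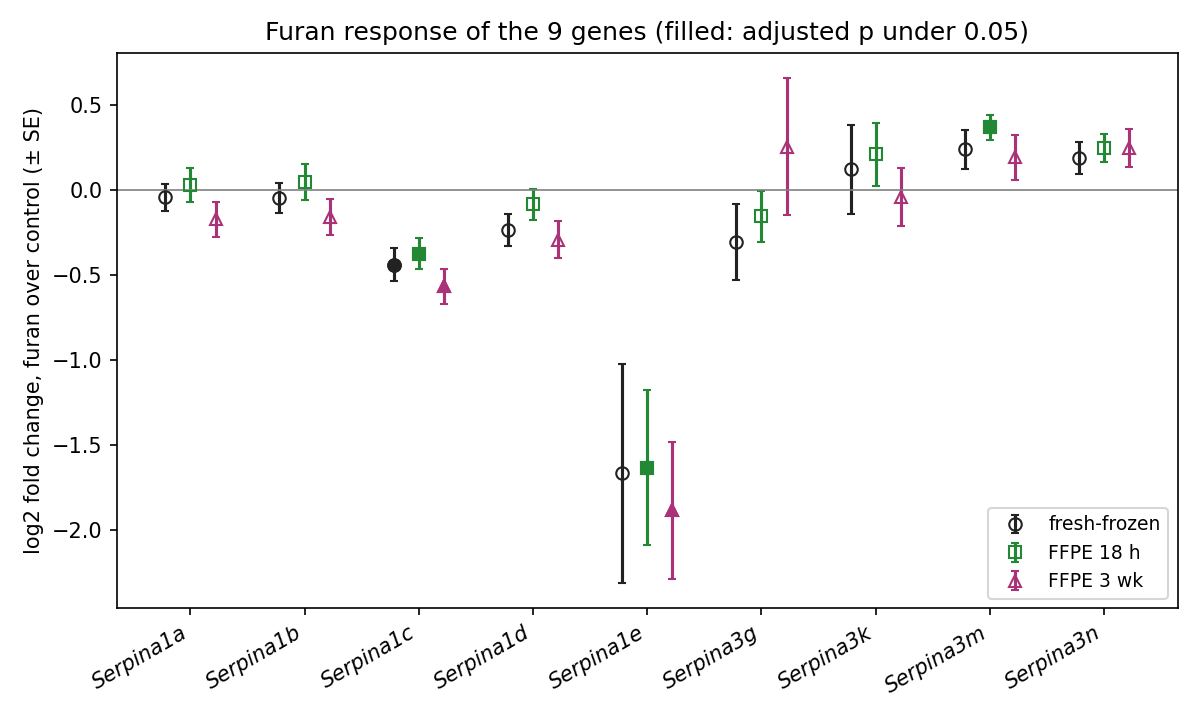
Fitted log2 fold change of furan over control for the 9 serpin genes (points, with bars of 1 SE), in fresh-frozen (circles), FFPE 18 h (squares) and FFPE 3 wk tissue (triangles); filled symbols have an edgeR adjusted p under 0.05. Serpina1c is filled in all 3 kinds of tissue, Serpina1e in both kinds of FFPE tissue with the longest bars below 0, and Serpina3m in FFPE 18 h tissue alone.

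Whether the furan effect differed between kinds of tissue was tested as an interaction. For Serpina1c the FFPE 18 h effect minus the fresh-frozen effect was 0.08 ± 0.14 and the FFPE 3 wk effect minus the fresh-frozen effect was -0.11 ± 0.15. For Serpina1e the differences were 0.05 ± 0.85 and -0.20 ± 0.82, and for Serpina3m 0.14 ± 0.14 and -0.03 ± 0.18. None of the 9 passed in edgeR, where 0% of genes did in either test, with 455 of 13739 and 590 of 13156 genes at an unadjusted p under 0.05 and 1 and 19 genes called by DESeq2. In simulated data the FFPE 18 h test recovered 66.5% of 200 genes given a 2-fold change, and the FFPE 3 wk test 0%. The lack of calls in the FFPE 3 wk test therefore does not show that the furan effect was the same. With the animal number as a replicate block the Serpina1e differences were 0.06 ± 0.10 and -0.32 ± 0.17 (edgeR adjusted p = 0.878 and 0.844), and again 0 of the 9 genes passed in either test.

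Other genes of the serpin system were read from fixed lists, whose counts stand beside 8.21% of all genes tested higher and 7.47% lower in fresh-frozen tissue, and 3.92% and 4.47% in FFPE 18 h tissue. Of 10 further clade A serpins tested in fresh-frozen tissue, 1 rose and 1 fell: Serpina11, a clade A serpin of liver, had a change of -0.88 ± 0.14 (edgeR adjusted p = 0.00789), and Serpina9, which went from 0.373 to 1.18 CPM, had a change of 1.65 ± 0.40 (adjusted p = 0.0300). Both passed again in FFPE 18 h tissue, with changes of -0.76 ± 0.14 and 1.78 ± 0.46. Serpina7, which encodes thyroxine-binding globulin, and Serpina6, which encodes corticosteroid-binding globulin, did not pass in any kind of tissue (0.62 ± 0.24 and -0.28 ± 0.16 in fresh-frozen). Of 7 plasma serpins of other clades, 2 fell in fresh-frozen and in FFPE 18 h tissue. Serping1, the C1 inhibitor, fell by 0.50, 0.31 and 0.59 on the log2 scale in the 3 kinds of tissue (edgeR adjusted p = 0.00716, 0.0153 and 0.0294). Serpinf1, which encodes PEDF, had changes of -0.40 ± 0.08, -0.29 ± 0.07 and -0.53 ± 0.12, all of which passed. Antithrombin, Serpinc1, did not pass in fresh-frozen tissue (-0.28 ± 0.08, edgeR adjusted p = 0.0565).

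Of the proteases that serpins inhibit, 2 of 12 tested fell and 0 rose in fresh-frozen tissue, where 7.47% of all genes were lower: Klkb1, plasma prekallikrein, had a change of -0.51 ± 0.08 and F11, coagulation factor XI, of -0.42 ± 0.12 (edgeR adjusted p = 0.00794 and 0.0454). Prothrombin, F2, and cathepsin L, Ctsl, did not pass there (-0.28 ± 0.08 and -0.26 ± 0.09). Of 25 acute phase protein genes, 1 rose and 3 fell. Lcn2, lipocalin 2, rose from 2.09 to 3.80 CPM (0.88 ± 0.18), while Orm1, Orm3 and Lbp had changes of -0.55 ± 0.10, -1.03 ± 0.20 and -0.55 ± 0.15. Among FFPE 18 h libraries 3 of the 25 rose, among them Lcn2 (1.36 ± 0.28), and 0 fell. Of 14 acute phase signalling genes, 2 rose and 0 fell in fresh-frozen tissue: Stat3, the factor downstream of interleukin 6, by 0.43 ± 0.10 (adjusted p = 0.0248) and Nfkbiz by 0.34 ± 0.09. Cebpa and Hnf4a, factors of hepatocyte genes, did not pass there (-0.38 ± 0.11 and 0.28 ± 0.11).

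Of 23 genes for folding and clearance in the endoplasmic reticulum, the compartment through which secreted serpins pass, 4 rose and 1 fell in fresh-frozen tissue, where 8.21% of all genes were higher and 7.47% lower. Syvn1, a ubiquitin ligase of that clearance, rose by 0.60 ± 0.10 (edgeR adjusted p = 0.00951), Edem3 by 0.38 ± 0.10 and Edem2 by 0.25 ± 0.06, while Os9 had a change of -0.26 ± 0.06. Of 16 interferon gamma response genes, Cxcl10, a chemokine, rose from 1.68 to 4.597 CPM (1.46 ± 0.15, adjusted p = 0.00189) and the other 15 did not pass. Median log2 fold changes in fresh-frozen tissue were -0.21 for the further clade A serpins, -0.28 for the plasma serpins, -0.21 for the proteases, -0.19 for the acute phase proteins, -0.13 for the signalling genes, -0.02 for the interferon genes and 0.03 for the folding genes, beside -0.01 over all genes tested. Of all these lists, Serping1 and Serpinf1 were the 2 genes that passed in FFPE 3 wk tissue, where 0.522% of all genes were lower and 0.298% higher. Of the hepatocyte, T and NK cell and macrophage markers 0 passed in fresh-frozen tissue, with medians of -0.05, -0.23 and -0.38.

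The second comparison asks how the kind of preserved tissue changes the measured levels. Of the 9 serpin genes, 6 were higher in controls and 8 in furan livers after 18 h of fixation. After 3 wk it was 3 and 5, and the copies of Serpina1 differed by unequal amounts. These fits had no term for the animal. With the animal number as a replicate block, 9 and 9 genes passed after 18 h and 5 and 6 after 3 wk. Among those 6, Serpina1d was lower. In the blocked fits after 18 h, 9425 of 13034 and 10314 of 13411 genes tested passed in either direction. After 3 wk it was 2816 of 12145 and 5810 of 12599. Of the 5 copies Serpina1c had the highest log2 fold change and Serpina1d the lowest in all 4 comparisons, and the order of the copies changed. The fixation, the RNA extraction kit and the number of sections (1 for 18 h and 2 for 3 wk, each 10 µm thick) changed together, and their parts cannot be told apart. RNA integrity numbers were above 8.9 in frozen and 1.3 to 2.4 in FFPE tissue per the labels, and libraries were selected on poly(A).

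In control livers 6 of the 9 genes were higher and 0 lower in FFPE 18 h than in fresh-frozen tissue, where 34.2% of 13034 genes tested were higher and 33.8% lower. In furan livers 8 were higher, against 36.8% of 13411 genes higher and 36.2% lower. In FFPE 3 wk tissue 3 were higher in controls, against 13.2% of 12145, and 5 in furan livers, against 22.4% of 12599. None was lower in these fits without a term for the animal, where 13% and 22.9% of genes were. The median log2 difference of the 9 genes was 0.67 and 0.76 for FFPE 18 h and 0.60 and 0.57 for FFPE 3 wk tissue in control and furan livers, beside 0.02, 0.02, -0.03 and 0.01 over all genes.

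In controls Serpina1c was the serpin gene with the largest difference, from 1355 to 1592 CPM in fresh-frozen to 3863 to 5052 CPM in FFPE 18 h and 3516 to 4002 CPM in FFPE 3 wk controls. No FFPE library lay near a fresh-frozen one. The differences were 1.71 ± 0.12 (edgeR adjusted p = 1.181e-06) and 1.38 ± 0.10 (adjusted p = 2.205e-05), and 1.77 ± 0.08 and 1.23 ± 0.12 in furan livers. Between the pieces of 1 liver the difference was 1.401 to 1.79 for FFPE 18 h and 0.94 to 1.56 for FFPE 3 wk over 6 animals. Serpina1a came next among the copies, at 1.11 ± 0.12 and 0.77 ± 0.09 in controls. Serpina1b was higher by 0.67 ± 0.11 in FFPE 18 h controls and did not pass in FFPE 3 wk controls (0.16 ± 0.10, adjusted p = 0.316).

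Serpina1d stood at 1984 to 2177 CPM in fresh-frozen, 2237 to 2553 CPM in FFPE 18 h and 1684 to 2085 CPM in FFPE 3 wk controls. Its differences were 0.26 ± 0.09 (edgeR adjusted p = 0.0229) and -0.17 ± 0.10 (adjusted p = 0.259). The first did not pass without FFPE control 03 (0.23, adjusted p = 0.0708), FFPE control 04 (0.23, adjusted p = 0.0694) or fresh-frozen control 04 (0.19, adjusted p = 0.0974). The ratio of Serpina1c to Serpina1d counts was 0.672 to 0.742 in fresh-frozen controls, 1.73 to 2.10 in FFPE 18 h and 1.92 to 2.20 in FFPE 3 wk controls. In furan livers it was 0.533 to 0.684, 1.31 to 1.84 and 1.45 to 2.01. Serpina1c went from 16.5% ± 1.07 (SD, n = 3) of the Serpina1 counts in fresh-frozen controls to 28.9% ± 1.37 (SD, n = 4) and 30.2% ± 1.44 (SD, n = 4) in FFPE controls. Serpina1d went from 23.7% ± 2.72 to 15.2% ± 2.00 and 14.8% ± 1.48, while Serpina1e kept 13.7%, 13.5% and 14.2% on average.

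**Figure D4:**
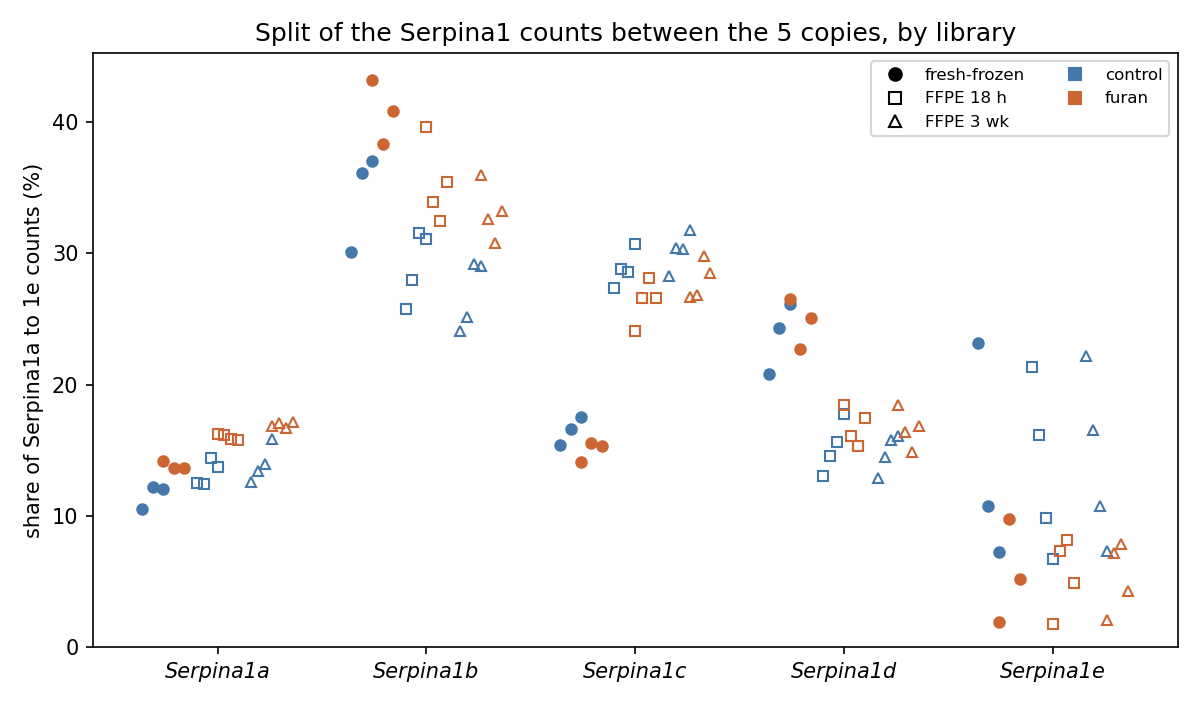
Share of the summed Serpina1a to Serpina1e counts taken by each copy, in percent, in every library: circles are fresh-frozen, squares FFPE 18 h and triangles FFPE 3 wk libraries, blue for control and orange for furan. Serpina1c lies at 14.1% to 17.6% in fresh-frozen libraries and at 24.1% to 31.8% in FFPE libraries, while Serpina1d lies at 20.8% to 26.5% and at 12.9% to 18.4%.

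For Serpina1e, whose level differed most between animals, the calls changed with a term for the animal. Without a term for the animal, its difference in controls was 0.88 ± 0.56 in FFPE 18 h (edgeR adjusted p = 0.189) and 0.50 ± 0.53 in FFPE 3 wk tissue (adjusted p = 0.555). With the animal number as a replicate block, which compares pieces of the same liver, it was 0.74 ± 0.09 (adjusted p = 2.242e-05) and 0.51 ± 0.10 (adjusted p = 0.01086). In furan livers the blocked difference was 0.785 ± 0.05 for FFPE 18 h tissue (edgeR adjusted p = 2.165e-14). For FFPE 3 wk tissue it was 0.15 ± 0.11 (adjusted p = 0.307). Only 3 livers per treatment had both pieces. In furan animals 41, 43 and 44 the FFPE 18 h difference was 0.843, 0.662 and 0.732. The edgeR test draws on the spread of all genes, so these p-values do not rest on the 3 pairs alone. In FFPE 18 h controls the block also brought Serpina3k past the edgeR threshold (0.43 ± 0.09, adjusted p = 0.001588). Serpina3m passed there too (0.28 ± 0.06, adjusted p = 0.002235). That made 9 of 9 genes, in a fit where 9425 of 13034 genes tested passed. In FFPE 3 wk controls the block brought Serpina3k past the threshold (0.68 ± 0.08, adjusted p = 0.0008083), which made 5, where 2816 of 12145 genes passed. In FFPE 3 wk furan livers it brought Serpina1d past the threshold, and Serpina1d was lower (-0.25 ± 0.09, adjusted p = 0.03249).

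Among the Serpina3 genes Serpina3g had the largest differences, and in FFPE 3 wk furan livers the largest of all 9 genes. It went from 6.27, 11.7 and 8.76 CPM in fresh-frozen controls to 18.0, 15.6, 23.8 and 21.9 CPM in FFPE 18 h controls. These groups were apart, at 1.21 ± 0.22 (edgeR adjusted p = 0.00067). In FFPE 3 wk controls it stood at 22.015, 27.6, 18.4 and 7.27 CPM, with animal 06 near its fresh-frozen value, and the difference of 1.13 ± 0.48 did not pass (adjusted p = 0.124). Without that library it passed at 1.39 (adjusted p = 0.0112). In furan livers it passed for both, at 1.35 ± 0.16 and 1.66 ± 0.29. Beside this, 3 of 5 tested members of the T and NK cell list were higher in FFPE 18 h controls, with a median of 1.78. The macrophage list had 2 of 8, with a median of 0.66, and over all genes tested 34.2% were higher there. The summed T and NK cell list overlapped, at 9.85 to 27.2 CPM in fresh-frozen and 12.1 to 20.7 CPM in FFPE 18 h controls. In FFPE 3 wk controls 0 of 3 T and NK cell and 0 of 8 macrophage genes passed, with medians of -0.433 and 0.615. In furan livers 5 of 7 T and NK cell genes were higher and 1 lower after 18 h, and 2 of 4 were higher after 3 wk. Macrophage genes were higher in 5 of 8 at both times, against 36.8% and 22.4% of all genes. The part of those cells in the Serpina3g difference was not tested.

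Serpina3n was higher by 0.36 ± 0.11 in FFPE 18 h (edgeR adjusted p = 0.0150) and 0.60 ± 0.11 in FFPE 3 wk controls (adjusted p = 0.00433). Without fresh-frozen control 04 the first was 0.26 and did not pass (adjusted p = 0.0723). Between pieces of 1 liver it was higher in 6 of 6 animals at both times, by 0.15 to 0.41 and by 0.48 to 0.68. Serpina3k did not pass in controls without the block (0.53 ± 0.27 and 0.76 ± 0.26), and its difference between pieces of 1 liver was 0.30 to 0.55 and 0.43 to 0.77. In FFPE 3 wk furan livers it passed at 0.57 ± 0.18 (adjusted p = 0.0250), but not without FFPE animal 42 (0.54, adjusted p = 0.0719) or 43 (0.41, 0.0780), or fresh-frozen animal 41 (0.46, 0.1127) or 44 (0.47, 0.0996). Serpina3m was higher in FFPE 18 h furan livers (0.39 ± 0.06, adjusted p = 0.000176) and did not pass in FFPE 3 wk tissue, at 0.07 ± 0.16 in control and 0.00 ± 0.09 in furan livers.

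**Figure D5:**
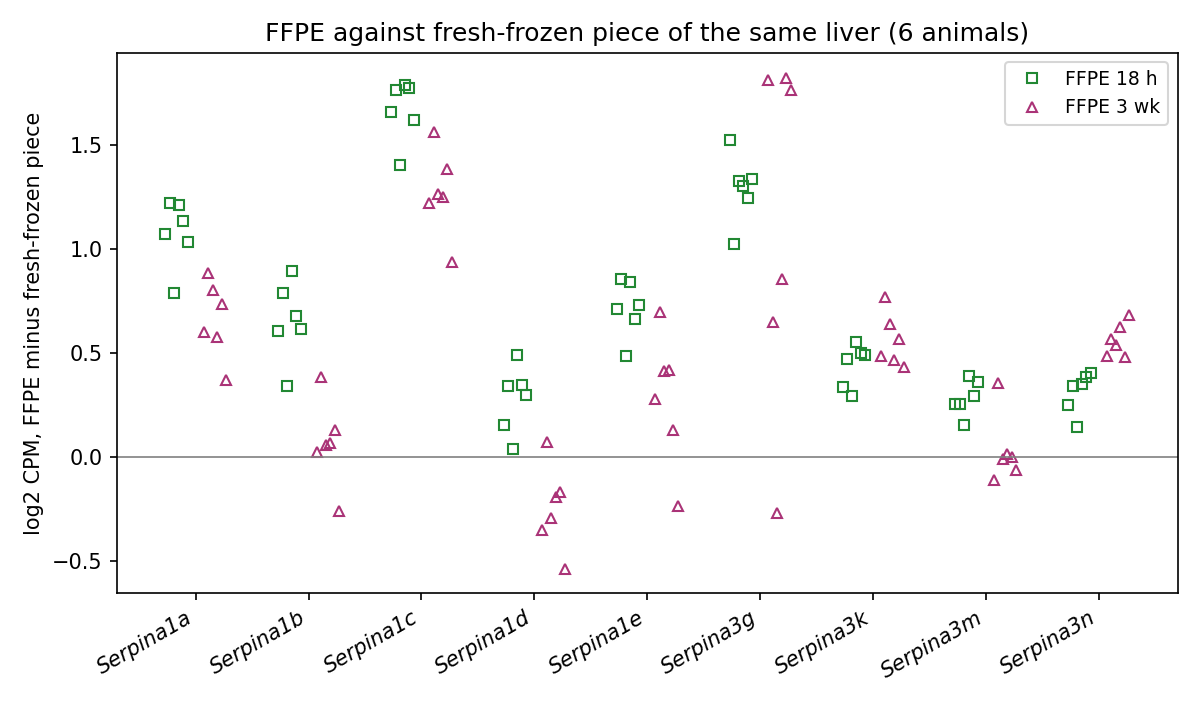
Difference in log2 CPM between the FFPE and the fresh-frozen piece of the same liver for each serpin gene, with 1 symbol per animal (6 animals): green squares are FFPE 18 h and purple triangles FFPE 3 wk pieces. Serpina1c lies highest among the copies of Serpina1 at 1.401 to 1.79 and 0.94 to 1.56, Serpina1d runs from 0.04 to 0.49 and from -0.53 to 0.07, and Serpina3g spreads from -0.27 to 1.82 in FFPE 3 wk pieces.

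Single libraries also brought genes past the edgeR threshold when left out. Without fresh-frozen control 02, Serpina1e passed at 1.69 (adjusted p = 0.0209) and Serpina3k at 0.87 (0.0130) in FFPE 18 h controls, and Serpina3k at 1.08 (0.0101) in FFPE 3 wk controls. Without fresh-frozen control 06, Serpina3m passed at 0.40 (0.00758) in FFPE 18 h controls. Serpina1e passed in FFPE 18 h furan livers without FFPE animal 41 (1.21, 0.0298) or fresh-frozen animal 43 (1.59, 0.0226), and Serpina1d was lower in FFPE 3 wk furan livers without FFPE animal 41 (-0.33, 0.0332).

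Other serpins also differed between kinds of tissue. Of 9 further clade A serpins tested in FFPE 18 h controls, 8 were higher and 1 was lower, with a median of 0.85, and in FFPE 3 wk controls 0 of 8 passed. Of 7 plasma serpins of other clades 3 were higher and 1 was lower in FFPE 18 h controls, and 1 was higher and 3 were lower in FFPE 3 wk controls. Of 10 hepatocyte markers tested, 4 were higher and 4 lower in FFPE 18 h controls. Over all genes tested, 34.2% were higher and 33.8% lower in FFPE 18 h controls, and 13.2% and 13% in FFPE 3 wk controls. Alb, albumin, took 10.96% to 11.3% of counts in fresh-frozen, 5.10% to 9.22% in FFPE 18 h and 5.85% to 7.14% in FFPE 3 wk controls, while the share of the 9 serpin genes was 1.28% to 1.76%, 1.11% to 2.58% and 1.91% to 2.72%.

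The genes whose pattern over all 22 libraries lay closest to the serpins were found by the root mean square difference of log2 CPM after each gene's mean was removed. For the summed Serpina1 counts they were Ctsh (0.120), Akr1c6 (0.137), Pecr (0.145), Sirt3 (0.147) and B3gat3 (0.168), beside a median of 0.712 over 9581 genes. For Serpina3n they were Cers2 (0.099), Cyp2f2, Tmem59, Maz and Gnb1, and for Serpina3k they included Srd5a1 (0.198), Cyp2f2 and Nsdhl. For Serpina3m they were Gpt (0.140), Tpi1, Clptm1l, Gorasp2 and Ctsd, and for Serpina3g Fopnl (0.316), Fcgr2b, Tomm34, Tomm22 and Gimap6. A gene at the same level in all libraries would lie at 0.421 from the summed Serpina1 counts and 0.268 from Serpina3n. For Serpina3k, Serpina3m and Serpina3g that value was 0.42, 0.236 and 0.71. Libraries of 1 kind of tissue share a preparation, so these likenesses hold that difference too.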

How the data were processed

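Poly(A)-selected RNA of 22 libraries was measured by sequencing. Per the submitters' processing notes, CASAVA 1.8.2, STAR 2.3.0 and featureCounts 1.4.4 were used with mouse build mm9. The authors deposited raw integer counts per gene. Of 24 columns, 22 matched a labelled sample and 2 matched none and were not used. Groups came from the labels.

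The quasi-likelihood test of edgeR 4.0.16 (R 4.3.3, filterByExpr, TMM) was run per comparison on its own groups, and p-values were adjusted by Benjamini-Hochberg over all genes tested, at a threshold of 0.05. The scripts were tested on simulated data with 200 genes changed 2-fold. Recovery was 91%, 89% and 22% for furan in fresh-frozen, FFPE 18 h and FFPE 3 wk tissue. Against fresh-frozen tissue it was 77% and 90.5% for FFPE 18 h in control and furan livers, and 14.5% and 59.5% for FFPE 3 wk. Of the genes called in the simulated furan tests, 7.61%, 8.72% and 10.2% were false, above the threshold of 0.05. Against fresh-frozen tissue the false share was 8.88% and 2.16% for FFPE 18 h and 12.1% and 5.56% for FFPE 3 wk. SEs were derived from each fold change and its F statistic. Levels are CPM with TMM over all 22 libraries. Alternatives were DESeq2 1.42.0, RLE scaling, no filter, 1 model of all 6 groups, leaving out Rn45s, thinning to 3666173 counts, animals with all pieces, the animal as a block and each library left out. Named genes are the 9 members, up to 4 genes per list with the smallest p in fresh-frozen tissue, Alb, Rn45s and the 5 nearest patterns (genes with a mean of at least 5 CPM, prior count 2).  Members and lists were chosen with earlier results of these data known.

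Replicates are animals, and the labels say that each liver was divided, so pieces pair by number: deviations from group means correlated at 0.389 to 0.506 between fresh-frozen and FFPE 18 h, 0.083 to 0.255 between fresh-frozen and FFPE 3 wk and 0.007 to 0.272 between FFPE pieces of 1 animal. Within a treatment, the own animal was the best match in 6 of 6 cases for each kind of FFPE piece against fresh-frozen. Between the FFPE pieces this held in 6 of 8, and control 03 and furan 44 matched another animal better. No libraries were duplicates (lowest chi-square per degree of freedom 9.36). Transcripts are the longest RefSeq-linked ones of GENCODE M21, aligned with MAFFT 7.526, and give the lengths behind levels per kilobase. Promoters come from RefSeq. How multi-matching reads were counted and the read length are not given in the sources used here. A few genes of the lists and of the likeness ranking are not reported here.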

Additional observations from a re-analysis of the deposited data

Results flagged for a closer look

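Serpina1b in FFPE 18 h furan livers stood at 5720 CPM in animal 41 and at 4444 to 4561 CPM in the other animals. The gap came to 0.909 of the group's range, past Dixon's 95% limit for a group of 4. It was the 1 case among 60 groups tested, and chance gives about 1 in 20.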

How the results depend on the processing

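With 1 model of all 6 groups the number of serpin genes past the threshold became 0 for furan in fresh-frozen and 0 for furan in FFPE 18 h tissue and 5 for FFPE 3 wk against fresh-frozen controls. With only animals that have a fresh-frozen column it became 0 for furan in FFPE 18 h and 0 in FFPE 3 wk tissue. With the animal as a replicate block it became 5 for FFPE 3 wk against fresh-frozen controls, and the other calls it changed stand in the report. Leaving out 1 library at a time gave 0 to 2 genes for furan in fresh-frozen, 1 to 3 in FFPE 18 h and 0 to 2 in FFPE 3 wk tissue. It gave 4 to 8 and 8 to 9 for FFPE 18 h and 3 to 4 and 4 to 6 for FFPE 3 wk against fresh-frozen tissue in control and furan livers, and 0 for both interactions. All genes past the threshold, 2162 for furan in fresh-frozen tissue, became 138 in the model of all 6 groups, 746 with thinned counts and 864 to 1620 with 1 library left out. For furan in FFPE 18 h tissue 1077 became 225 in that model, 682 with thinned counts, 594 with the shared animals and 633 to 1285 with 1 library left out. For furan in FFPE 3 wk tissue 99 became 353 with DESeq2, 194 with no filter, 2030 in the model of all 6 groups, 19 with the shared animals and 17 to 173 with 1 library left out. That model gave 5769 in place of 8867, 5837 in place of 9785 and 6028 in place of 3188 for FFPE 18 h control, FFPE 18 h furan and FFPE 3 wk control against fresh-frozen tissue, the last of which ran from 1978 to 4398 with 1 library left out. The interactions with 0 calls gave 1 (DESeq2) and 2 (replicate block) for FFPE 18 h, and 19 (DESeq2), 19 (all 6 groups) and 0 to 5 (1 library left out) for FFPE 3 wk. The cause was not tested. FFPE 3 wk libraries held the fewest counts, with 75 to 286 of Serpina3g per control library, and their common dispersion in the furan comparison was 0.336 against 0.015 in fresh-frozen tissue.

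Signs changed without any call for Serpina3g in FFPE 18 h furan tissue with thinned counts (0.0148), for Serpina3k in FFPE 3 wk furan tissue with the shared animals (0.0295) and for the Serpina1e interaction in FFPE 18 h with the shared animals (-4e-04). Against fresh-frozen furan livers, FFPE 3 wk gave Serpina1b -0.047 and Serpina3m -0.0717 with no filter, and -0.0198 and -0.0452 in the model of all 6 groups. Of the other log2 fold changes under settings that leave out no library, 570 kept direction and call, 18 lost the call and 17 gained it.

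Genes near 0 changed sign when 1 library was left out, none of them past the threshold in either direction. For furan in fresh-frozen tissue, Serpina1a ran from -0.075 to 0.0028, Serpina1b from -0.0808 to 0.0013 and Serpina3k from -0.0757 to 0.46. For furan in FFPE 18 h tissue, Serpina1a ran from -0.0647 to 0.08 and Serpina1b from -0.0494 to 0.0995. For furan in FFPE 3 wk tissue, Serpina3g ran from -0.0275 to 0.50 and Serpina3k from -0.20 to 0.0811. For FFPE 3 wk against fresh-frozen controls, Serpina3m ran from -0.0322 to 0.19. For FFPE 3 wk against fresh-frozen furan livers, Serpina1b ran from -0.0356 to 0.0929, Serpina1e from -0.17 to 0.92 and Serpina3m from -0.0306 to 0.0229. For the furan effect in FFPE 18 h minus fresh-frozen tissue, Serpina1a ran from -0.0078 to 0.14, Serpina1c from -0.0064 to 0.15, Serpina1e from -0.77 to 0.73, Serpina3g from -0.0646 to 0.35, Serpina3k from -0.24 to 0.32, Serpina3m from -0.0099 to 0.22 and Serpina3n from -0.0058 to 0.16. For the furan effect in FFPE 3 wk minus fresh-frozen tissue, Serpina1d ran from -0.14 to 0.0381, Serpina1e from -1.01 to 0.44, Serpina3k from -0.49 to 0.0206 and Serpina3m from -0.17 to 0.0476.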
